A study of Mus musculus with 6 samples.

Results

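Elastic fibres are the extracellular cables that let skin, vessels, lung and the stroma of fat stretch and recoil. Their core is cross-linked elastin, and the core is laid down on a bundle of microfibrils, whose backbone is fibrillin. Fibulins, microfibril-associated glycoproteins and EMILIN proteins sit on and between the microfibrils and the core, and lysyl oxidases then bind the elastin molecules to each other. The genes described here are 10 components of that structure: elastin (Eln), the fibrillins Fbn1 and Fbn2, the fibulins Fbln1, Fbln2 and Fbln5, the microfibril-associated proteins Mfap2, Mfap4 and Mfap5, and Emilin1. They were found by symbol in a count table of 24197 genes, and 8 of the 10 passed the filter on low counts that left 13805 genes for testing. The 10 were chosen from the contrast between the Prdm16 and the puro libraries, as elastin set against its scaffold, so their values in that contrast are given as a description and with no test.

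The libraries were made from polyadenylated RNA of stromal-vascular cells, the part of a fat depot that is not lipid-filled adipocytes, taken from the inguinal adipose tissue of C57BL/6 mice. All 6 libraries came from cells that grew in a standard medium and had received a retrovirus. In 3 libraries this was the control (puro) virus and in 3 the Prdm16 virus, which forces the expression of a transcriptional regulator known from brown and beige fat. The comparison asks what forced Prdm16 does to these cells, and it holds no cells without a virus. The sources used here give neither the age of the mice nor the number of animals nor the days in culture. Whether libraries of a group stem from different cultures or mice is not in the labels either, and p-values below therefore measure no more than the spread among these libraries, possibly a technical one.

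The libraries held 28169059 to 35798201 counts, and values are given as CPM, the count divided by the library size after TMM scaling. Prdm16 itself had 14, 22 and 25 counts in the puro libraries and 98437, 72525 and 89054 in the Prdm16 libraries, as the labels require, and delivered and endogenous transcripts cannot be told apart in these counts. Of the 10 markers listed for stromal cells, Col1a1, Col3a1, Pdgfra and Pdgfrb were abundant in the puro libraries, Thy1 lay below 1 CPM in all 6 libraries, and Dpp4 and Pi16 had at most 17 counts in a group. In bulk RNA, fewer cells of a type and less RNA per cell cannot be told apart. Genes of some chromosomes were shifted together, with medians by chromosome from -0.39 to 0.49 on the log2 scale. Each tested member was therefore also read after its chromosome's median had been removed.

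Elastin and fibrillin-2 were nearly absent in the puro libraries and well measured in the Prdm16 libraries, while fibrillin-1, the most counted member in the puro libraries, was lower. Of the 10 members, 4 were higher in every Prdm16 library than in any puro library (Eln, Fbn2, Fbln5 and Mfap5), 3 were lower (Fbn1, Fbln1 and Fbln2), and 3 had overlapping groups (Emilin1, Mfap2 and Mfap4). Among all 13805 genes tested, 38.4% did not overlap and were higher and 39.2% did not overlap and were lower, and nothing is read from the members' count beside these shares, since the members were chosen on this contrast. The log2 fold changes of the 8 tested members ran from -1.52 to 6.97. Their median of 0.93 lies in the gap between Emilin1 (-0.20) and Fbln5 (2.06) and is near no member's value. The 7 other than Eln had a median of -0.20, beside a median of -0.007 over all genes tested. Mfap5 passed the filter through the 3 Prdm16 libraries, where it was higher, and 2 of the puro libraries also reached the filter's level.

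**Figure D1:**
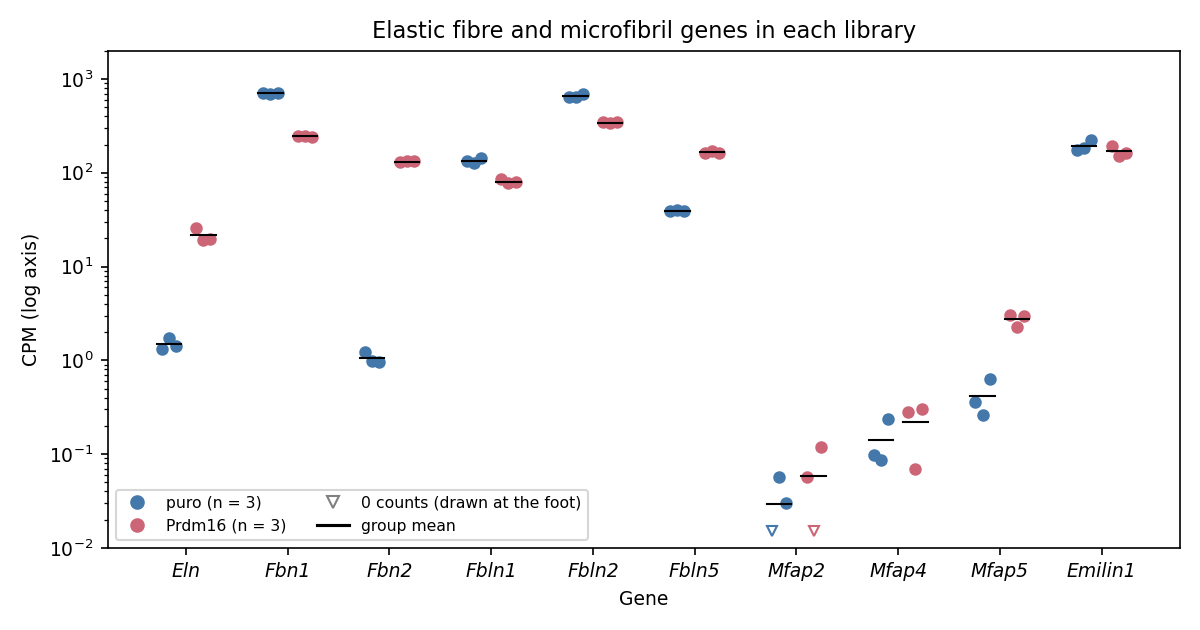
CPM of the 10 members (log axis) in the 3 puro (blue) and 3 Prdm16 (red) libraries, with the group mean as a line and a count of 0 drawn as an open triangle at the foot. Eln, Fbn2, Fbln5 and Mfap5 lie higher in all Prdm16 libraries, Fbn1, Fbln1 and Fbln2 lie lower, and the groups overlap for Emilin1, Mfap2 and Mfap4.

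Elastin is the protein that gives the fibre its recoil. Eln had 41, 60 and 48 counts in the puro libraries and 914, 556 and 663 in the Prdm16 libraries, which were 1.32, 1.72 and 1.43 CPM against 26.0, 19.2 and 19.9 CPM. The 3 Prdm16 values lay far above the 3 puro values, with the first Prdm16 library the highest. The mean moved from 1.49 ± 0.206 to 21.7 ± 3.73 CPM (SD, n = 3 each), a 14.5-fold difference, or 3.86 ± 0.16 (SE) as a log2 fold change. The spread of Eln between libraries was the widest of the 8 tested members among the Prdm16 libraries, with a coefficient of variation of 17.2%, and its coefficient among the puro libraries was 13.8%. Across the alternative settings its log2 fold change stayed between 3.67 and 3.97.

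Fibrillins are long, cysteine-rich proteins that polymerise into the microfibril, and fibrillin-2 is best known from developing tissue while fibrillin-1 is the main form of adult microfibrils. Fbn1 had 712, 685 and 716 CPM in the puro libraries and 248, 249.5 and 238 CPM in the Prdm16 libraries. The groups lay far apart and each was tight. Its mean was 704 ± 16.6 CPM with the puro virus and 245 ± 6.01 CPM with the Prdm16 virus (SD, n = 3 each), a log2 fold change of -1.52 ± 0.04. Fbn2 went the other way, from 38, 34 and 32 counts in the puro libraries to 4564, 3842 and 4411 in the Prdm16 libraries. In CPM these were 1.23, 0.975 and 0.954 against 129.6, 133 and 132, and the log2 fold change was 6.97 ± 0.07, a 125-fold difference and the widest among the members. The 3 Prdm16 libraries differed little from each other, with a coefficient of variation of 1.25%.

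The fibrillins are close relatives, and no source used here says how reads that match both genes were counted. The counts of Fbn2 stood at 0.172%, 0.142% and 0.133% of those of Fbn1 in the puro libraries, so at most that share of Fbn1 reads could have been counted as Fbn2 there. In the Prdm16 libraries, where Fbn1 itself was lower, the share was 52.4%, 53.2% and 55.4%. These values set no limit on Fbn2 reads counted as Fbn1. To compare levels between genes, CPM was divided by the length in kb of each gene's exons, merged over its protein-coding transcripts. A shorter expressed transcript would raise a gene's value, so shares and orders between genes depend on this length. On that scale Fbn2 made up 0.162% ± 0.0221 of the summed fibrillin level in the puro libraries and 36.8% ± 0.690 in the Prdm16 libraries (SD, n = 3 each). The sum of both fibrillins was nevertheless lower in the Prdm16 libraries, at 32.3 ± 0.496 against 58.8 ± 1.39 CPM per kb, since the difference in Fbn1 exceeded that in Fbn2 on this scale.

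**Figure D2:**
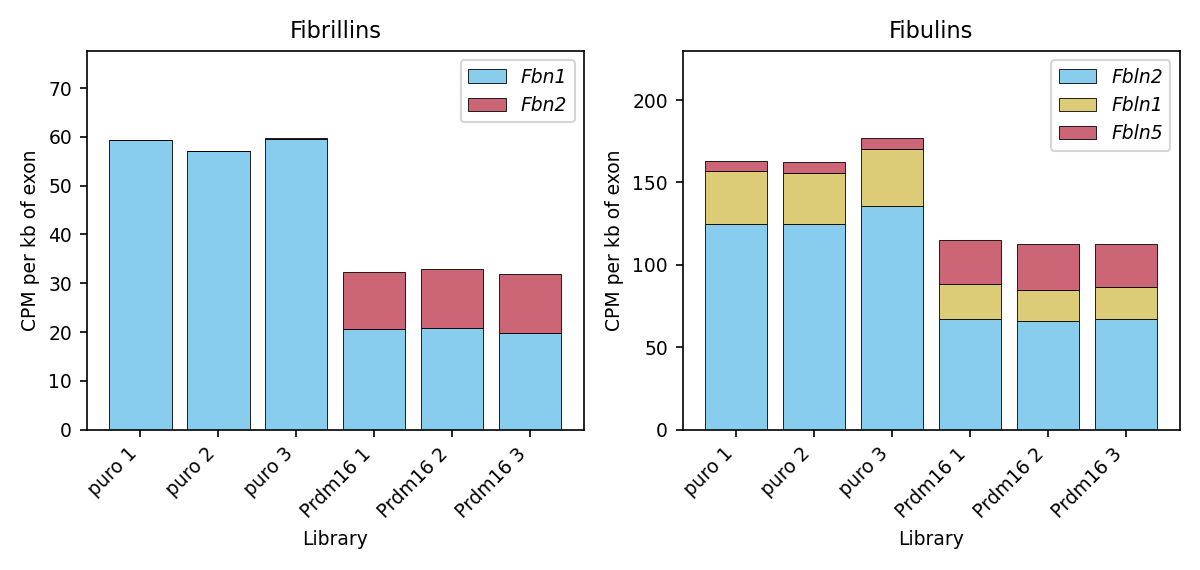
Level per exon length (CPM per kb) of the fibrillins (left) and of the fibulins Fbln1, Fbln2 and Fbln5 (right) as stacked bars, one bar for each library. On the left, Fbn2 is a thin sliver of the puro bars and 36.8% of the Prdm16 bars on average. On the right, Fbln5 goes from 3.90% to 24.0%. Both sums are lower in the Prdm16 libraries.

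Fibulins are calcium-binding glycoproteins. Fibulin-5 binds both elastin and integrins and is needed to bring elastin to the microfibril, while fibulin-1 and fibulin-2 are found in elastic fibres and in basement membranes. Fbln5 had 39.2, 40.02 and 39.5 CPM in the puro libraries and 164, 170.2 and 161 CPM in the Prdm16 libraries. Both groups were tight and wide apart. Its log2 fold change was 2.06 ± 0.04, a 4.17-fold difference. Fbln2, the most abundant member per kb in both groups, had 639, 639.6 and 695 CPM against 346, 337 and 344 CPM. Every Prdm16 library lay below every puro library, and the log2 fold change was -0.94 ± 0.04. Fbln1 had 132, 127 and 143 CPM in the puro libraries and 85.0, 77.5 and 78.9 CPM in the Prdm16 libraries. It was lower in all Prdm16 libraries, by -0.73 ± 0.05 on the log2 scale, and by -0.36 once the median of chromosome 15 (-0.375) was removed. Summed per kb, the 3 fibulins among the members stood at 167 ± 8.21 CPM per kb in the puro libraries and 114 ± 1.45 in the Prdm16 libraries. The share of Fbln5 in that sum was 3.90% ± 0.199 and 24.0% ± 0.818, and that of Fbln2 was 76.6% ± 0.300 and 58.8% ± 0.611 (SD, n = 3 each).

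Fbln1 and Fbln5 were the fibulins for which the RefSeq promoter table (GRCm38.p6) held a start site whose 250 bases upstream contained no annotated exon, and they moved in opposite directions, so these upstream stretches are shown as a pair. That of Fbln1 is chr15:85205699-85205948 on the plus strand, and that of Fbln5 is chr12:101819120-101819369 on the minus strand. Both are written 5′ to 3′ along the gene's own strand, and capitals mark matches to the motifs searched.
Fbln1: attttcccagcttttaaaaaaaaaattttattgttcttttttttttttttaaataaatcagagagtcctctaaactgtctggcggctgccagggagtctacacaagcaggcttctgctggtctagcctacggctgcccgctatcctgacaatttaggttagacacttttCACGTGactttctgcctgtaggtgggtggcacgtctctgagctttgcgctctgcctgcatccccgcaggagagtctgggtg
Fbln5: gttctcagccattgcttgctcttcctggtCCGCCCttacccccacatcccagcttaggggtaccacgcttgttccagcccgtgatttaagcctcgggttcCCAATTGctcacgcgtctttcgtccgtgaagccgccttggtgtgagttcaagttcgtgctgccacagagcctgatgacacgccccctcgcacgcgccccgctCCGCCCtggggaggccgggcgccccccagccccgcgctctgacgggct
Of the printed stretches, that of Fbln5 was the richer in G and C. It had 65.2% with 21 CpG pairs, against 46.4% with 7 CpG pairs for Fbln1. The medians over all 32851 promoters of the table were 52.4% and 6. Each gene had another entry, not printed because its 250 bases upstream contained annotated exon bases. There the order was the other way, with 62.4% and 14 CpG pairs for Fbln1 against 49.6% and 6 for Fbln5. The motifs searched, on both strands, were the GC box GGGCGG, the TATA box TATAAA, the CCAAT box, the AP-1 site TGANTCA and the E-box CANNTG. The Fbln5 stretch held the GC box at bases 30 and 203 (as CCGCCC, the other strand) and a CCAAT box at base 101 that overlaps an E-box at base 102, and the Fbln1 stretch held an E-box, CACGTG, at base 170, counted from the first base shown. Of all promoters 32.7% held the GC box, 33.8% the CCAAT box and 66.2% the E-box, and the 9 entries of the 6 matched members held them in 5, 2 and 6 cases. The TATA box (12.4% of all promoters) and the AP-1 site (6.75%) had no match in the 9 entries. The entry of Fbln1 that is not printed held 1 GC box and 2 E-boxes, and that of Fbln5 held no match. The matches of these genes therefore depend on the start site chosen. A match describes these letters only. Eln, Fbn2, Mfap4 and Mfap5 had no entry.

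The microfibril-associated proteins are small glycoproteins on the microfibril surface, and Mfap5 (MAGP-2) and Mfap2 (MAGP-1) are relatives of each other, while Mfap4 is a fibrinogen-related protein that binds elastin and fibrillin. All 3 were low in these cells. Mfap5 had 11, 9 and 21 counts in the puro libraries and 106, 66 and 98 in the Prdm16 libraries, or 0.413 ± 0.191 and 2.74 ± 0.402 CPM (SD, n = 3 each). The groups did not overlap, and the log2 fold change was 2.73 ± 0.25, or 3.17 without the third puro library, the highest of its group. Mfap2 had 0, 2 and 1 counts against 2, 0 and 4, or 2.04 times as many per library size (95% counting interval 0.436 to 12.6). Mfap4 had 3, 3 and 8 counts against 10, 2 and 10, or 1.60 times as many (interval 0.784 to 3.39). Both intervals, which cover counting error only, include a ratio of 1, and neither gene passed the filter on low counts.

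Emilin1 encodes a glycoprotein at the interface of elastin and microfibril, known also for holding back the maturation of TGF-beta. It had 176, 183 and 224 CPM in the puro libraries and 194, 151 and 161 CPM in the Prdm16 libraries. The groups overlapped, with the third puro library and the first Prdm16 library the highest of their groups. The log2 fold change was -0.20 ± 0.10. It was -0.09 without the third puro library, -0.31 without the first Prdm16 library, -0.13 without the second Prdm16 library and -0.38 with the median of its chromosome removed.

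**Figure D3:**
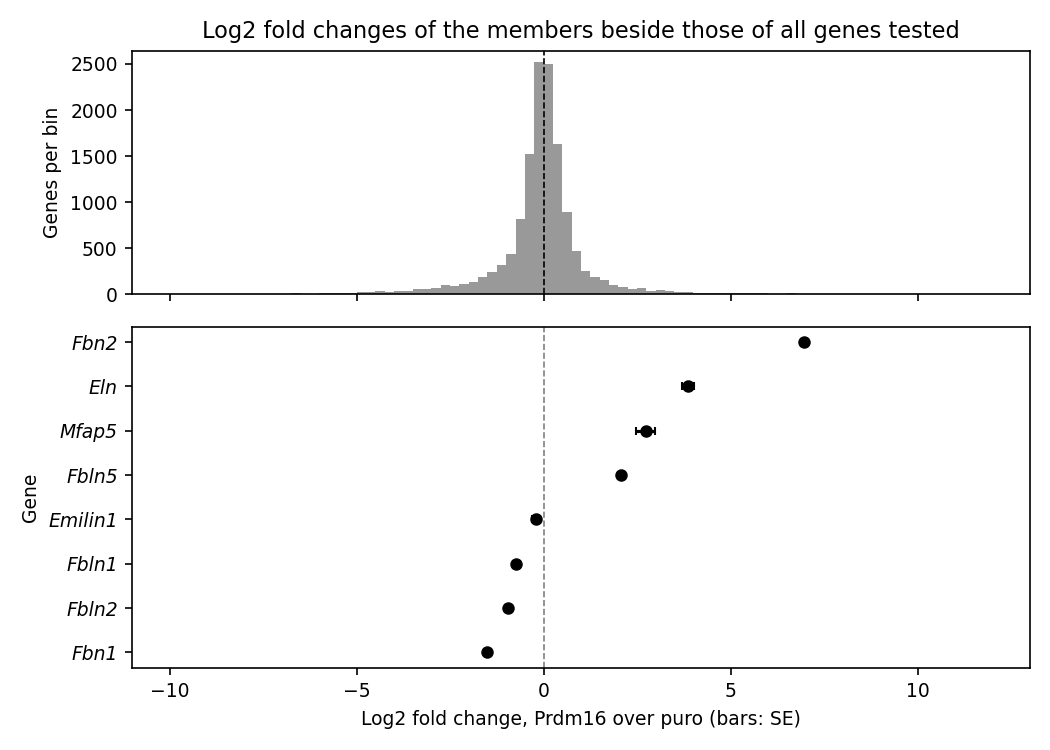
Log2 fold changes (Prdm16 over puro) of all 13805 genes tested as a histogram (top) and of the 8 tested members as points with SE bars (bottom), on a shared axis. Fbn2 (6.97), Eln (3.86), Mfap5 (2.73) and Fbln5 (2.06) lie to the right of the bulk of genes, and Fbn1 (-1.52) is the lowest member.

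Per kb of exon, the order of levels differed between the groups. In the puro libraries it was Fbln2 at 128 CPM per kb, Fbn1 at 58.7, Emilin1 at 50.4, Fbln1 at 32.6, Fbln5 at 6.52, Eln at 0.387, Mfap5 at 0.258, Fbn2 at 0.0952, Mfap4 at 0.0782 and Mfap2 at 0.0255. Neighbours whose libraries overlapped were Fbn1 with Emilin1, Eln with Mfap5, Fbn2 with Mfap4, and Mfap4 with Mfap2. In the Prdm16 libraries the order was Fbln2 at 66.7, Emilin1 at 43.8, Fbln5 at 27.2, Fbn1 at 20.4, Fbln1 at 19.6, Fbn2 at 11.9, Eln at 5.63, Mfap5 at 1.71, Mfap4 at 0.121 and Mfap2 at 0.0517 CPM per kb. There only Fbn1 with Fbln1 and Mfap4 with Mfap2 overlapped. Fbln5 thus stood below Fbn1 in the puro libraries and above it in the Prdm16 libraries.

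Elastin made up more of the summed level in the Prdm16 libraries and was still a small part of it. The 10 members together stood at 277 ± 15.8 CPM per kb in the puro libraries and 197 ± 8.29 in the Prdm16 libraries, and Eln was 0.140% ± 0.0232 and 2.84% ± 0.363 of these sums. For each unit of Eln per kb there were 154 ± 23.2 units of Fbn1 in the puro libraries and 3.69 ± 0.571 in the Prdm16 libraries. For Fbln5 the ratio to Eln was 17.1 ± 2.07 and 4.93 ± 0.826 (SD, n = 3 each). These ratios compare RNA levels and say nothing of the protein or of assembled fibres.

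Eln, Fbn1, Fbn2 and Mfap4 each overlap the exons of a gene on the other strand in the GENCODE annotation, by 267, 2442, 129 and 89 bases, and no source used here gives the strand setting of featureCounts. The partner of Mfap4 is Mapk7, with 2976 counts in all puro and 2957 in all Prdm16 libraries, so reads of Mapk7 could be among the few of Mfap4. The partners of the other 3 are predicted genes with no row under their symbol in the count table.

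Patterns over the 6 libraries were compared with that of Eln by the Euclidean distance between centred log2 CPM profiles. The search covered 10805 tested genes with at least 5 CPM in the higher group and left out predicted gene models. Nearest were Fam189a2 (distance 0.396), Slc25a23, a mitochondrial carrier (0.421), and Amigo2, a cell adhesion protein (0.471). Next came Msln, or mesothelin (0.484), and Tfcp2l1, a transcription factor (0.495). Fam189a2 had 1.89 CPM on average in the puro and 24.9 in the Prdm16 libraries, and Msln 6.30 and 91.2. With 2 groups of 3, this likeness is mainly a likeness of fold change, and it is a description. Among the members, Mfap5 (1.75) and Fbln5 (2.18) lay nearest to Eln and Fbn1 (6.54) farthest.

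Of the other genes known from elastic fibre assembly, binding and turnover, 66 were listed, 64 were in the count table and 52 were tested, and here the edgeR quasi-likelihood test applies, with p-values adjusted over all 13805 genes. Of the 52, 11 rose (21.2%), 35 fell (67.3%) and 6 did not pass at an adjusted p of 0.05, with a median log2 fold change of -0.46. Over all genes tested 37.5% rose and 38.0% fell, with a median of -0.007. The lists were drawn up with earlier results of these data known, so the counts describe the lists and test nothing about them.

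**Figure D4:**
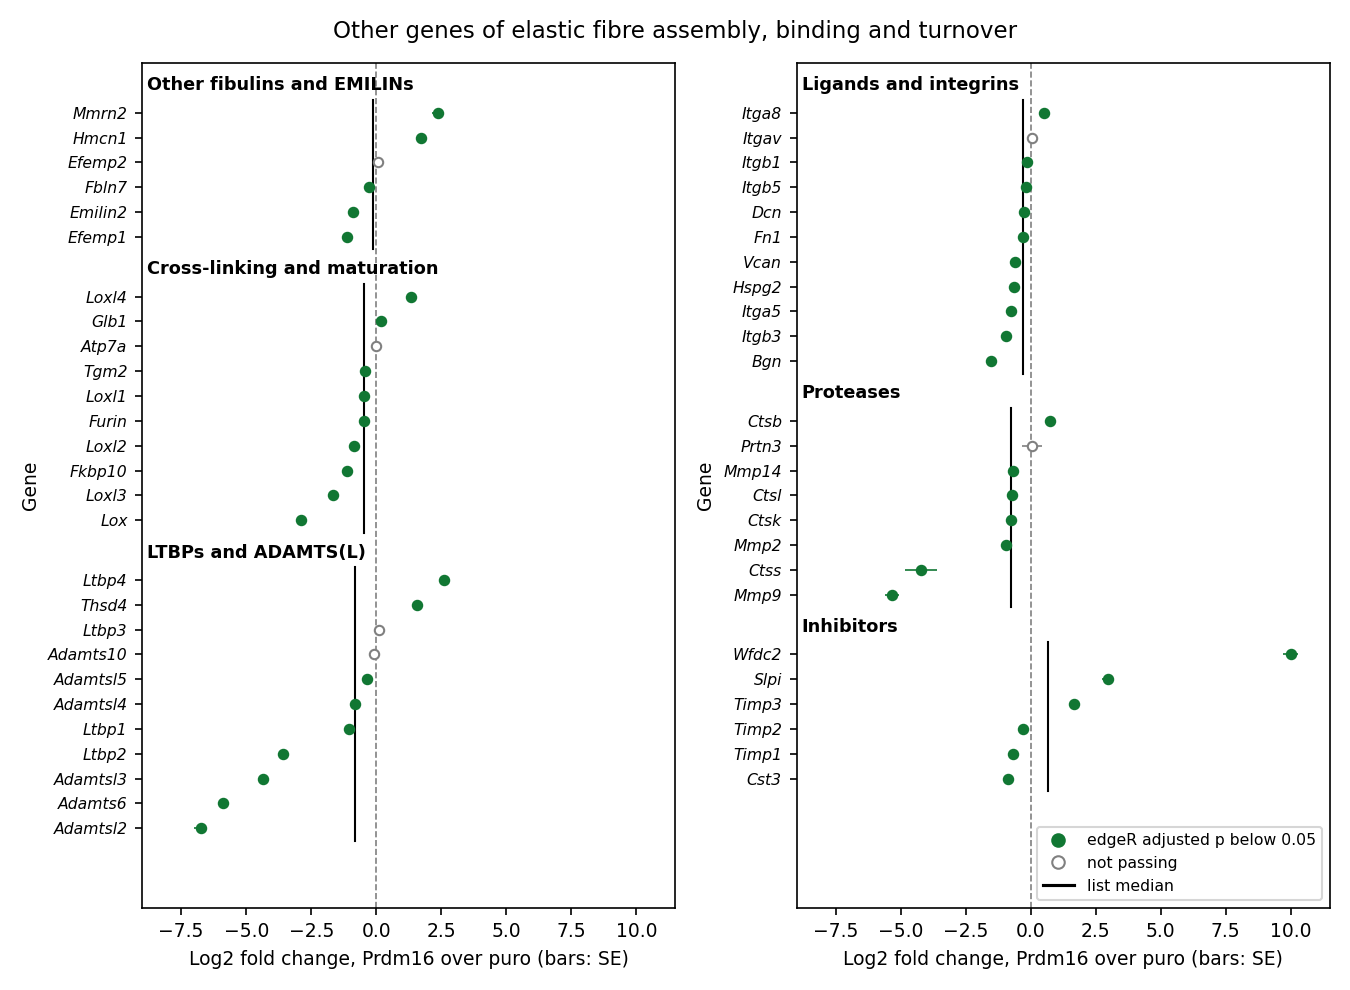
Log2 fold changes (Prdm16 over puro, SE bars) of the 52 tested genes in 6 lists, filled where the edgeR adjusted p was below 0.05 and open where not, with the median of each list as a vertical line. Most points of the cross-linking, LTBP and ADAMTS, ligand and protease lists lie to the left of 0, and the value of Wfdc2 rests on 1 count in the puro libraries.

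Relatives of the fibulins and EMILINs were mixed, with 2 of 6 tested genes higher, 3 lower and 1 not passing, and a median of -0.11. Efemp1 (fibulin-3) fell from 257 to 117 CPM, with a log2 fold change of -1.13 ± 0.04 (edgeR adjusted p = 3.49e-10), and Emilin2 fell by 0.89 (adjusted p = 2.95e-08). Hmcn1, a giant fibulin also called hemicentin, rose from 1.78 to 5.78 CPM and Mmrn2, a multimerin known from vessels, from 0.374 to 1.93 CPM (edgeR adjusted p = 4.59e-07 and 2.74e-06). Efemp2 (fibulin-4), which brings lysyl oxidase to elastin, had 300.3, 306 and 313 CPM in the puro libraries and 317, 317 and 317 CPM in the Prdm16 libraries. That difference of 0.05 ± 0.03 did not pass (edgeR adjusted p = 0.179). Emilin3 and Mmrn1 had at most 4 counts in a group, and Hmcn2 had no row under that symbol.

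The enzymes and chaperones of cross-linking were mostly lower: 7 of 10 fell, 2 rose and 1 did not pass, and the median was -0.46. Lox, the lysyl oxidase that cross-links elastin and collagen, had 3782, 3800.5 and 3539 CPM in the puro libraries and 500.4, 514 and 481 CPM in the Prdm16 libraries. The 2 groups lay wide apart, and the log2 fold change was -2.90 ± 0.04 (edgeR adjusted p = 1.09e-12). Loxl3 fell by 1.65 on the log2 scale. Fkbp10, a chaperone of elastin and collagen in the endoplasmic reticulum, fell by 1.12. Loxl1, the family member most tied to elastin, had 250.1, 255 and 325 CPM against 227, 181 and 196 CPM, with the third puro library the highest, and fell by 0.46 (edgeR adjusted p = 0.00167). Loxl4 was the lysyl oxidase that rose, from 150.3, 152 and 158 CPM to 382, 403 and 389 CPM, with a log2 fold change of 1.35 ± 0.04 (edgeR adjusted p = 7.01e-11). Glb1, the beta-galactosidase gene that also gives the elastin-binding protein by splicing, rose by 0.17 (adjusted p = 0.00188), or 0.28 with its chromosome's median removed. Atp7a, the copper pump that loads lysyl oxidases, differed by -0.02 and did not pass (adjusted p = 0.757).

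Latent TGF-beta binding proteins and the ADAMTS and ADAMTS-like proteins bind fibrillin and shape microfibrils. Of 11 tested, 7 fell, 2 rose and 2 did not pass, with a median of -0.80. Ltbp4, which anchors fibulin-5 and elastin to the microfibril, had 5.97, 6.42 and 7.93 CPM in the puro libraries and 48.6, 38.0 and 37.1 CPM in the Prdm16 libraries. All Prdm16 libraries were higher, by 2.61 ± 0.13 on the log2 scale (edgeR adjusted p = 7.07e-09). Thsd4 (ADAMTSL6), which promotes fibrillin-1 assembly, rose from 3.25 to 9.62 CPM (adjusted p = 2.76e-07). Ltbp2 fell by 3.59. Adamtsl3 fell from 58.2 to 2.81 CPM and Adamts6 from 28.6 to 0.480 CPM, with edgeR adjusted p-values of 4.26e-12 and 7.85e-12. Adamtsl2 had 920 counts in all puro and 8 in all Prdm16 libraries (log2 fold change -6.75 ± 0.24). Adamts17 had at most 16 counts in a group.

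The ligands and integrin receptors of microfibrils and elastin were lower in 9 of 11 tested genes, with 1 higher and 1 not passing, and a median of -0.30. Bgn (biglycan) was among the most counted, at 3893, 3840.2 and 3776 CPM in the puro libraries and 1347, 1354 and 1319 CPM in the Prdm16 libraries. Its log2 fold change was -1.52 ± 0.03 (edgeR adjusted p = 1.69e-11). Hspg2 (perlecan) fell by 0.64 and Itgb3 fell by 0.96. Itga5, an integrin that binds fibronectin and fibrillin, fell by 0.77 and had a log2 fold change of -0.40 with its chromosome's median removed. Itga8 rose from 9.05 to 12.9 CPM (log2 fold change 0.50 ± 0.09, edgeR adjusted p = 0.000345). Vtn, Itgb6 and Itga9 had at most 9 counts in a group.

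Proteases that cut elastin or its scaffold fell in 6 of 8 tested genes, with 1 higher and 1 not passing, and a median of -0.74. Mmp9 fell from 7.12 to 0.175 CPM (log2 fold change -5.32 ± 0.26, edgeR adjusted p = 7.55e-09) and Mmp2 fell by 0.95. Mmp14, the activator of Mmp2, fell by 0.68 and had a log2 fold change of -1.17 with its chromosome's median removed. Ctss, a cathepsin with strong elastase activity, had 63 counts in all puro and 3 in all Prdm16 libraries, 20.6-fold lower (95% counting interval 6.73 to 102.5). Mmp12, the macrophage elastase, had 14 counts over the puro libraries and 0 over the Prdm16 libraries. That is 4.58-fold lower if 3 counts over the group are taken as the floor. This value allows for no counting error in the 14 and is not a lower limit. Mmp7 was at 0 in all libraries and Elane had 1 count in all. Ctsb rose from 691 to 1161 CPM, by 0.75 ± 0.04 on the log2 scale (edgeR adjusted p = 5.56e-09), and by 0.26 with its chromosome's median removed.

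The inhibitors of these proteases were divided, with 3 of 6 tested genes higher and 3 lower. Their median of 0.69 lies in the gap between Timp2 (-0.31) and Timp3 (1.68). Timp3, the matrix-bound metalloproteinase inhibitor, had 82.0, 85.6 and 79.7 CPM in the puro libraries and 236, 282 and 275 CPM in the Prdm16 libraries, a log2 fold change of 1.68 ± 0.06 (edgeR adjusted p = 8.82e-10). Slpi, an inhibitor of neutrophil elastase, rose from 29 counts over the puro to 227 over the Prdm16 libraries (adjusted p = 5.93e-07). Wfdc2 had 1 count in all puro and 1386 in all Prdm16 libraries, 1413 times as many (interval 253 to 55860). Timp1 fell by 0.67 (adjusted p = 2.46e-07), and Timp2 and Cst3 also fell. Timp4, A2m and Serpina1a had at most 24 counts in a group, and Pi3 had no row under that symbol.

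Markers of cells that are known to make elastic fibres, or that could be present in the depot, also differed between the groups, in both directions. The 10 smooth muscle and pericyte markers summed to 449 to 501 CPM in the puro and 308 to 327 CPM in the Prdm16 libraries. Of these, 8 were lower (Acta2, Tagln, Myh11 and Cspg4 among them), with Acta2 at 251 and 32.1 CPM on average. Notch3 (125 and 201 CPM) and Mcam (7.86 and 70.4 CPM) were higher and made up most of the sum in the Prdm16 libraries. The 10 stromal markers summed to 7627 to 8284 against 3264 to 3551 CPM, with 6 of 8 tested lower, Ly6a higher and Pdgfra not passing. The 6 elastic cartilage markers summed to 23.7 to 24.4 against 5.21 to 5.99 CPM, with 3 of 4 tested lower and Acan at 0 in 5 libraries. The 6 adipocyte markers summed to 157 to 177 against 590 to 693 CPM, most of it Fabp4 (115 and 551 CPM on average). All 4 tested were higher, with Plin1 at 10 and 9 counts and Lep at 0 and 5 counts over the groups.

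Markers of lining, vessel, gland and immune cells were read in the same way. The 6 mesothelial markers summed to 7.18 to 7.58 CPM in the puro and 96.4 to 102 CPM in the Prdm16 libraries, almost all of it Msln, whose pattern was among the 5 nearest to Eln. Krt19 was also higher, while Wt1 was lower, Upk1b was at 0 in all libraries, and Upk3b and Lrrn4 had at most 28 counts in a group. The 8 endothelial markers summed to 3.32 to 3.78 against 9.37 to 12.2 CPM, with Tek higher, Vwf lower, Kdr not passing, and Cdh5 and Cldn5 at 0 in all libraries. The 6 mammary epithelial markers summed to 0.258 to 0.328 against 21.0 to 22.8 CPM, with Krt18, Epcam and Cdh1 higher and Krt5, Krt14 and Krt8 at no more than 4 counts in a group. Of the 6 macrophage markers, Adgre1 had no row under that symbol and is not in the sum. The other 5 summed to 4.999 to 6.28 against 4.73 to 4.94 CPM, with Lyz2 lower, Cd68 not passing and Ptprc at 0 and 7 counts. The part of any of these cells in the levels of the 10 members was not tested.

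Single libraries also stood out in part. Of the 8 tested members, 5 were highest of their group in the third puro library (62.5%) and 5 in the first Prdm16 library (62.5%), the latter being Eln, Fbln1, Fbln2, Mfap5 and Emilin1. Over all genes tested the same libraries were highest for 35.8% and 36.7%, and over the 52 other genes of the lists for 53.8% and 46.2%. Leaving either library out changed no direction among the 8 tested members, and the part of these libraries in the differences is given by the values without them for Mfap5 and Emilin1 above.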

How the data were processed

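RNA-seq libraries from cells with the puro virus (3) and the Prdm16 virus (3) were compared. The authors deposited whole-number counts per gene symbol, with no normalization. The submitters' processing notes name STAR, featureCounts, Subread and the build mm9. Their roles, their versions, the strand setting and the handling of multi-mapping reads: not given in the sources used here. Groups and replicate numbers came from the sample titles. The members and all gene lists were chosen with earlier results of these data known.

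Counts were fitted with edgeR 4.0.16 in R 4.3.3 (filterByExpr with the group, TMM scaling, two-sided quasi-likelihood test, Benjamini-Hochberg adjustment over 13805 genes, threshold 0.05). The step was run on simulated counts in which far fewer genes differed than here. Scaling and error control at the share of genes called here were therefore not tested. The genes removed held 0.0297% of the counts. Library totals were 28169059 to 35798201, and the limit that a count of 0 allows, 3 counts, was 0.0852 to 0.104 CPM. Replicates of a group differed beyond sampling noise (chi-square per gene 2.08 to 8.85) and were each counted. Ratios resting on few counts have exact 95% binomial counting intervals. Exon lengths, merged over the protein-coding transcripts of a gene, and chromosomes came by symbol from GENCODE for GRCm38, another build than that of the counts. Promoter sequences came from RefSeq (GRCm38.p6), with 6 of the 10 members matched.

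Named were all members, Prdm16, up to 4 genes per list with the smallest edgeR p plus up to 2 that passed against most of the list, and the 5 genes nearest to Eln. Other genes were named after their values were seen. Alternatives were other scalings, filters, thresholds and prior counts, DESeq2 1.42.0, limma-voom (limma 3.58.1), a replicate block, removal of chromosome medians, and leaving out each library.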

Additional observations from a re-analysis of the deposited data

How the results depend on the processing

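The log2 fold change of Eln stayed between 3.67 and 3.97 over 16 alternatives, and the numbers of genes higher and lower stayed between 4605 and 5683 and between 4587 and 5466. Only the median log2 fold change of the members other than Eln, -0.20 over 7 tested genes, changed sign: without a filter on low counts it was 0.68, since Mfap2 and Mfap4, at 3 to 22 counts in a group, then enter. It ran from -0.31 to -0.09 when single libraries were left out, and was -0.36 with chromosome medians removed. Removing them also moved Fbln1, Emilin1, Glb1, Itga5, Mmp14 and Ctsb by over 1.5 times. Fbn1, Fbn2, Fbln2 and Fbln5 then had log2 fold changes of -1.56, 7.36, -0.995 and 2.13. These moves exceeded the SD of each gene between libraries, while Eln (3.67) and Mfap5 (2.68) moved by less than theirs. Each move was set by the chromosome median removed, so this only compares that median with the gene's spread. Of the other genes of the lists, 34 or 35 were lower and 11 or 12 higher under each alternative. The labels do not say whether same-numbered libraries are pairs. Their deviations correlated at -0.164, 0.0986 and -0.0674, and not every library correlated best with its own number. With 3 libraries a group, each centred on its group's mean, these values cannot show whether the libraries were paired. The replicate block gave 5017 higher and 5072 lower genes, 11 and 34 of the lists, and 3.84 for Eln. Depth limits Mfap2 and Mfap4, and in the puro libraries Eln, Fbn2 and Mfap5, which had 9 to 60 counts in a library. With 3 libraries a group, 1 contrast and no cells without a virus, neither the effect of the virus nor the spread between animals can be read from these data.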
